A study of Homo sapiens with 4 samples.

Results

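The mRNA of 10 intermediate filament genes was measured in 2 triple-negative breast cancer (TNBC) cell lines with and without mebendazole (MBZ). The genes were 9 keratins, KRT5, KRT7, KRT8, KRT14, KRT17, KRT18, KRT19, KRT80 and KRT81, and vimentin, VIM. They were taken by symbol through the Ensembl identifiers of the table and are 10 of its 58735 genes. All 10 were found. MDA-MB-231 and SUM159, both established human TNBC lines, received 1 µM MBZ or the DMSO vehicle for 72 h, and RNA was extracted from each culture. MBZ is an anthelmintic drug that binds tubulin. The labels give no other genetic change or treatment for either line, and each line and treatment has 1 library of bulk RNA. The spread between cultures could therefore not be measured within a line, and fold changes within a line carry no test.

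Intermediate filaments are the stretch-resistant cables of the cytoplasm. Keratin filaments assemble from pairs of a type I and a type II protein, so a cell that makes 1 type usually makes the other. KRT8 (type II) and KRT18 (type I) are the pair of simple, single-layered epithelia such as the breast lumen, where KRT7 and KRT19 are also made. KRT5 (type II) and KRT14 (type I) are the pair of basal cells, and KRT17 (type I) is a basal keratin that is also induced in wounded skin. KRT80 is a type II keratin of epithelia, and KRT81 a type II keratin of hair that some breast cancer lines express. VIM, a type III protein, builds filaments on its own and is the filament of mesenchymal cells. TNBC is classed by little or no oestrogen receptor and progesterone receptor and no excess of HER2, and many of its lines make VIM beside keratins.

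The 4 libraries held between 17143139 and 24897586 counts, of which the 10 genes took 0.399% to 0.533%. A library with 3 counts of a gene, the limit that a count of 0 allows, lay at 0.129 to 0.181 CPM, the count scaled to the normalized library size. At least 1 count was seen for 22278 genes (DMSO) and 24416 genes (MBZ) of MDA-MB-231, and for 23015 and 27239 of SUM159. Genes with few counts moved up with MBZ and genes with many counts moved down. For genes averaging 10 to 100 counts, the log2 fold change of MBZ over DMSO had its median at 0.27 in both lines. For genes averaging at least 1000 counts the median stood at -0.22 (MDA-MB-231) and -0.16 (SUM159). The part of this trend in the changes below was not tested.

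The libraries were checked against markers. PGR, the progesterone receptor, had 0 counts in all 4 libraries. ESR1, the oestrogen receptor, had 1 count in MDA-MB-231 with DMSO, 0 with MBZ, 2 in SUM159 with DMSO and 18 with MBZ. ERBB2, which encodes HER2, had 1996, 1353, 1826 and 1216 counts in the same order. Of 12 epithelial markers, the sum in MDA-MB-231 was 716.2 CPM without and 538.0 CPM with MBZ, and in SUM159 it was 14.1 and 16.3 CPM. SPINT2, a protease inhibitor, held 11525 and 6163 of the 16647 and 10228 counts in MDA-MB-231, and over the 10 markers compared there the median log2 fold change was 0.34, beside -0.018 over all genes. By 1.5-fold 1 was higher and 3 lower, beside 18.3% and 15.8% of all genes, or 6 and 1 with scaling by total counts. CDH1, E-cadherin, had 11 and 12 counts in MDA-MB-231 and 0 and 0 in SUM159. Of 4 leukocyte markers, the sum was 2.62 and 4.21 CPM in MDA-MB-231 and 44.2 and 11.5 CPM in SUM159, where PTPRC, the pan-leukocyte phosphatase CD45, had 216 and 60 counts and CD14, a monocyte surface receptor, 477 and 110. ITGAM, a myeloid integrin on the same list, had 0 and 17 counts in MDA-MB-231 and 39 and 66 in SUM159. The T cell gene CD3E had at most 1 count in any library. The 4 endothelial markers summed to 18.9 and 22.3 CPM in MDA-MB-231 and to 40.9 and 42.3 CPM in SUM159. Of the 2 adipocyte markers, ADIPOQ had 0 counts in every library and the sum was 0.473 to 1.39 CPM. The part of these markers in the keratin and VIM levels was not tested. In bulk RNA, fewer cells that make a keratin and less of its mRNA per cell cannot be told apart.

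The genes lie in 3 places of GRCh38. The type II keratin genes are on chromosome 12, KRT80 at chr12:52168996-52192014 (minus strand, 9 exons), KRT7 at chr12:52232520-52252186 (plus strand, 9 exons), KRT81 at chr12:52285913-52291534 (minus strand, 9 exons), KRT5 at chr12:52514575-52520530 (minus strand, 9 exons) and KRT8 at chr12:52897187-52949954 (minus strand, 8 exons). KRT18, although a type I gene, lies at the edge of the same cluster, at chr12:52948871-52952906 (plus strand, 7 exons). The other type I genes are on chromosome 17, KRT19 at chr17:41523617-41528308 (6 exons), KRT14 at chr17:41582279-41586895 (8 exons) and KRT17 at chr17:41619442-41624842 (8 exons), all on the minus strand. VIM is at chr10:17228241-17237593 (plus strand, 10 exons).

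Coding sequence was compared among the 10 genes, KRT16, KRT75 and KRT86. In it, KRT81 and KRT14 each share with a near copy a run longer than a read of 150 bases. The counts of these genes and their copies cannot be fully told apart. Pseudogenes were left out of that comparison, and 4.21% of the windows of 100 bases in KRT8 occurred in the pseudogene KRT8P3. The coding sequences of KRT81 and KRT86, both hair keratins, were 94.2% identical over 1454 aligned bases, with an identical run of 605 bases. Of all windows of 100 bases in the KRT81 transcript, 29.4% also occurred in a KRT86 transcript.

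KRT14 and KRT16, which lie in the same cluster, were 88.7% identical with a shared run of 158 bases, and KRT14 and KRT17 were 85.2% identical with a run of 59. Of the windows of 100 bases in KRT14, 3.84% occurred in KRT16. The start of the run shared with KRT16 is shown in capitals with the 20 bases before it, 5′ to 3′ on the coding strand, because a read wholly within the run matches both genes. It was taken from coding exon sequence at chr17:41586426-41586545 for KRT14 and chr17:41612274-41612393 for KRT16 (GRCh38, both minus strand).
KRT14: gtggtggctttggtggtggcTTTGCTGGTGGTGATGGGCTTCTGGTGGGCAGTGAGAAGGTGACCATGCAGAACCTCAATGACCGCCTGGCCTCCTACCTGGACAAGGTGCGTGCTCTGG
KRT16: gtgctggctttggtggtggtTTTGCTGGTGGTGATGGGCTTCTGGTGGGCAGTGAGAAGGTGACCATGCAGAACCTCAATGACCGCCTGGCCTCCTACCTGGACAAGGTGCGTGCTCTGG

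KRT8 and KRT80, at 66.4% identity, shared a run of 65 bases, too short to fill a window of 100. No window of 100 bases of KRT80 or KRT19 occurred in another gene.

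Antisense neighbours set a further limit, since the strand setting of the counting was not given in the sources used here. VIM shared 656 exonic bases with VIM-AS1, which had 76, 125, 7 and 74 counts in MDA-MB-231 with DMSO and MBZ and SUM159 with DMSO and MBZ, against at least 20703 counts of VIM. KRT8 and KRT18 overlapped each other over 525 exonic bases on opposite strands. KRT7 shared 282 bases with KRT7-AS, which had 103, 53, 88 and 193 counts. Processed copies were numerous but held few counts. The 51 KRT8 pseudogenes in the table held together 0.377% to 2.26% of the KRT8 count, and the 67 KRT18 pseudogenes 0.212% to 0.846% of the KRT18 count.

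The first comparison asks which filament genes the lines made. Per kilobase of exonic sequence, on the CPM scale, VIM had the highest level of the 10 genes in SUM159 with and without MBZ and in MDA-MB-231 with DMSO, and KRT81 the highest in MDA-MB-231 with MBZ. With DMSO in MDA-MB-231 the per-length level was 392.8 for VIM, 278.9 for KRT81, 228.1 for KRT19, 180.7 for KRT7, 169.4 for KRT8, 152.4 for KRT18 and 57.5 for KRT80. The basal keratins stood far below, with per-length levels of 0.144 for KRT17, 0.0382 for KRT14 and 0 for KRT5. In SUM159 with DMSO the per-length level was 634.6 for VIM, 165.9 for KRT7, 82.7 for KRT8, 82.6 for KRT18, 27.2 for KRT80, 4.57 for KRT17 and 2.63 for KRT81. KRT14, KRT5 and KRT19 followed at 0.348, 0.190 and 0.0258. KRT8 and KRT18 could not be ordered in SUM159 with DMSO. The order below VIM depended on the length used. By the length of the canonical transcript alone, the level in MDA-MB-231 with DMSO was 943.8 for VIM, 653.3 for KRT8, 444.8 for KRT7, 383.4 for KRT19, 331.1 for KRT18 and 278.9 for KRT81. In SUM159 with DMSO that level was 319.1 for KRT8 and 179.3 for KRT18. By that length VIM had the highest level in all 4 libraries, at 505.6 against 272.7 for KRT81 in MDA-MB-231 with MBZ. VIM ranked 90 of 22126 genes by level per length in MDA-MB-231 with DMSO and 66 of 22864 in SUM159 with DMSO.

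**Figure D1:**
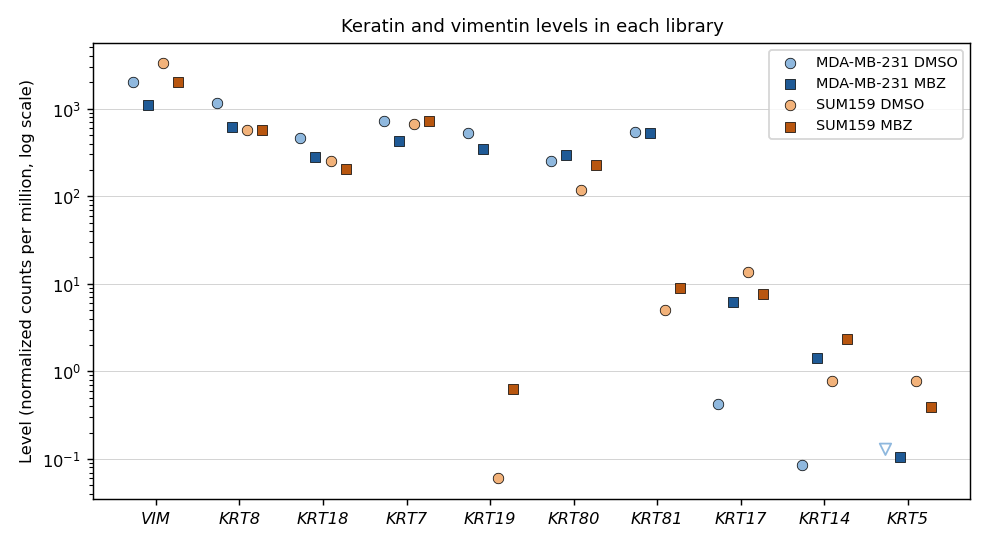
Level of each gene in each of the 4 libraries in CPM on a log axis (not per length, so to be compared within a gene). Each point is 1 library, circles DMSO and squares MBZ, and the open triangle marks KRT5 in MDA-MB-231 with DMSO, which had 0 counts and is drawn at the limit of 0.129 CPM. KRT19 and KRT81 separate the lines most clearly, KRT8, KRT18 and KRT80 by less, and KRT17 and KRT14 are lowest in MDA-MB-231 with DMSO.

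KRT19 and KRT81 separated the lines most clearly. KRT19, the small luminal keratin, had 12386 counts in MDA-MB-231 under DMSO and 6608 under MBZ, and 1 and 13 counts in SUM159. Both MDA-MB-231 libraries lay above both SUM159 libraries. By less, the same was seen for KRT8, KRT18 and KRT80, and the reverse for KRT5 and KRT17. The ratio of the MDA-MB-231 to the SUM159 level was 8827 with DMSO (95% counting interval 1584 to 348670) and 551.5 with MBZ (322.3 to 1036). In edgeR's quasi-likelihood test of the cell line, with the 2 treatments of a line standing in for replicates, the log2 difference of SUM159 to MDA-MB-231 was -10.20 (SE 0.84) with a Benjamini-Hochberg adjusted p of 6.79e-04.

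KRT81 had 12504 and 9999 counts in MDA-MB-231 and 84 and 184 in SUM159. The log2 difference was -6.25 (SE 0.44, adjusted p = 4.14e-04 by the same edgeR test), and MDA-MB-231 had 106.1 times the SUM159 level with DMSO (85.6 to 133.1) and 59.0 times with MBZ (51.0 to 68.6). KRT86, its near copy, had 349 and 139 counts in MDA-MB-231 and 395 and 357 in SUM159, so the reads of KRT81 per read of KRT86 were 35.8 and 71.9 in MDA-MB-231 and 0.213 and 0.515 in SUM159. With the counts of both genes added, the log2 difference was -4.25 in place of -6.25 and was still called.

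These 2 genes, both higher in MDA-MB-231, were the members called of 9 tested. Over all genes, 9.85% were called higher in MDA-MB-231 and 11.6% higher in SUM159. KRT5 had too few counts for the test. The other 7 had adjusted p-values of 0.191 to 0.569 in the edgeR test, which does not show that the lines made equal amounts. The pair KRT8 and KRT18 was lower in SUM159 with DMSO, and nearer with MBZ. The MDA-MB-231 to SUM159 ratio of KRT8 was 2.05 with DMSO and 1.08 with MBZ, and that of KRT18 was 1.85 and 1.38. KRT80 had ratios of 2.12 and 1.30. The ratio of KRT7 lay on either side of 1, at 1.09 with DMSO and 0.597 with MBZ. VIM was at 0.619 and 0.538, higher in SUM159 in both treatments. KRT17 had 10 and 119 counts in MDA-MB-231 and 227 and 156 in SUM159, with ratios of 0.0314 (0.0149 to 0.0588) and 0.828 (0.646 to 1.06). Its log2 difference of SUM159 to MDA-MB-231 was 2.44 with an adjusted p of 0.191 by edgeR. The adjusted p ranged from 0.00102 to 0.575 over 9 alternatives. The difference passed the threshold at 2.39 when every gene with at least 1 count was kept. With 1 library left out, the difference was 0.77 without MDA-MB-231 DMSO and 4.62 without MDA-MB-231 MBZ. It was 1.22 without SUM159 DMSO and 2.08 without SUM159 MBZ. These fits also dropped the treatment term, and the lone library of a line is assumed to vary like the other line. Without the treatment term and with all 4 libraries the difference was 1.71 (adjusted p = 0.285 by edgeR).

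The second comparison asks what MBZ did within each line. In MDA-MB-231, 9 of the 10 genes had a mean of at least 10 counts and were compared. VIM and the luminal keratins KRT7, KRT8, KRT18 and KRT19 were at least 1.5-fold lower with MBZ, KRT14 and KRT17 were at least 1.5-fold higher, and KRT80 and KRT81 lay within 1.5-fold. Of all 15142 genes compared, 18.3% were higher and 15.8% lower by at least 1.5-fold, so 5 of 9 lower stands beside 15.8% and 2 of 9 higher beside 18.3%. Of the 7 members with a mean of at least 1000 counts, 5 were lower, beside 19.5% of all genes at that level. Both members with a mean of 10 to 100 counts, KRT14 and KRT17, were higher, beside 38.5% of all genes at that level. Over the 9 members the median was -0.63 on the log2 scale, and over all genes -0.018.

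In MDA-MB-231, KRT8 had 27089 counts under DMSO and 11638 under MBZ. Its log2 fold change was -0.95, with a 95% counting interval from -0.98 to -0.91. Its partner KRT18 had 10874 and 5393 counts, a log2 fold change of -0.74 (-0.79 to -0.69). Both partners of the simple epithelial pair were thus lower, and KRT8 by more, with 2.49 KRT8 reads per KRT18 read with DMSO (2.44 to 2.55) and 2.16 with MBZ (2.09 to 2.23). KRT7 had 16800 and 8209 counts (log2 fold change -0.76, -0.80 to -0.72). KRT19 had 12386 and 6608 counts, and at -0.63 (-0.68 to -0.59) it lay closest to the 1.5-fold limit. VIM had 47253 and 20703 counts, a log2 fold change of -0.92 (-0.94 to -0.89). These 5 were lower under every scaling tried. Scaling by total counts raised every fold change in MDA-MB-231 by 0.27 on the log2 scale, and with it only KRT8 (-0.68) and VIM (-0.65) of the 5 passed 1.5-fold, while KRT7 was at -0.49, KRT18 at -0.47 and KRT19 at -0.37.

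KRT80 and KRT81 did not share this change. KRT80 had 5831 and 5664 counts in MDA-MB-231, a log2 fold change of 0.23 (0.18 to 0.28), and KRT81 had 12504 and 9999, one of -0.050 (-0.088 to -0.012) that turned to 0.22 with scaling by total counts. Against KRT8 in the same library, both were higher with MBZ. The KRT80 reads per KRT8 read went from 0.215 (0.209 to 0.221) to 0.487 (0.471 to 0.502), and the KRT81 reads per KRT8 read from 0.462 (0.452 to 0.471) to 0.859 (0.836 to 0.883). KRT86 was at -1.06 (-1.35 to -0.77) in the same libraries, lower by more than its near copy KRT81.

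The basal keratins were rare in MDA-MB-231, and KRT14 and KRT17 were higher with MBZ. KRT17 had 10 counts under DMSO and 119 under MBZ, a fold change of 14.2 (7.55 to 30.7). KRT14 had 2 and 27 counts, a fold change of 15.3 (4.10 to 141.5), or 3.94 on the log2 scale, which was 3.05 with a prior count of 2. KRT16, which shares the sequence shown with KRT14, had 0 and 7. KRT5, the type II partner of KRT14, had 0 and 2 counts, for which no fold change can be given. KRT15, a basal keratin outside the 10 genes, had 76 and 70 counts (log2 fold change 0.15, -0.34 to 0.64) and lay within 1.5-fold. Its per-length level with DMSO, 0.548, was above those of KRT17 (0.144) and KRT14 (0.0382). Even with MBZ, the per-length level was 2.09 for KRT17 and 0.630 for KRT14, against 89.0 for KRT8.

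In SUM159, 9 genes were compared again, with KRT19 in place of KRT5 below 10 counts. KRT14, KRT80 and KRT81 were at least 1.5-fold higher with MBZ, KRT5, KRT17 and VIM were at least 1.5-fold lower, and KRT7, KRT8 and KRT18 lay within 1.5-fold. Over all 15674 genes compared, 21.5% were higher and 21.7% lower, so 3 of 9 in each direction stands close to the background. Of the 5 members with a mean of at least 1000 counts 1 was lower, VIM, beside 22.2% of all genes at that level. Of the 2 with a mean of 10 to 100 counts 1 was higher, KRT14, beside 39.6%. Over the 9 members the median was -0.0077 on the log2 scale, and over all genes -0.034.

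In SUM159, VIM had 54409 counts under DMSO and 41720 under MBZ, a log2 fold change of -0.70 (-0.72 to -0.68) that was -0.40 with scaling by total counts and then within 1.5-fold. KRT80 had 1964 and 4720 counts, a log2 fold change of 0.95 (0.87 to 1.03). KRT81 had 84 and 184 counts, a log2 fold change of 0.81 (0.43 to 1.20). With the KRT86 counts added (chosen after seeing the data), the log2 fold change of the sum was -0.14, at 479 counts with DMSO and 541 with MBZ. KRT86 held 395 and 357 of these and was itself at -0.46 (-0.67 to -0.25). The sum therefore follows KRT86, and it cannot show what shared reads did to the KRT81 change.

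KRT7, KRT8 and KRT18 lay within 1.5-fold in SUM159. KRT8 had 9430 and 11679 counts, a log2 fold change of -0.0077 (-0.047 to 0.032). KRT18 had 4197 and 4254 counts, one of -0.30 (-0.36 to -0.23), and KRT7 10991 and 14910, one of 0.12 (0.088 to 0.16). With scaling by total counts, which raised all log2 values in SUM159 by 0.30, these were 0.29, 0.0044 and 0.42. The KRT8 reads per KRT18 read were 2.25 with DMSO (2.17 to 2.33) and 2.75 with MBZ (2.65 to 2.84), higher with MBZ where MDA-MB-231 had been lower.

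Of the rare keratins in SUM159, KRT17 had 227 and 156 counts, a log2 fold change of -0.86 (-1.16 to -0.56), and -0.56 with scaling by total counts. KRT14 had 13 and 48 counts (1.56, 0.66 to 2.58), and KRT16 had 2 and 23. KRT15, outside the 10 genes and within 1.5-fold in MDA-MB-231, had 9 and 172 counts here (3.92, 2.98 to 5.09). KRT5 had 13 and 8 counts, and although called lower at a fold change of 0.499, its counting interval of 0.178 to 1.29 includes no change. KRT19, a luminal keratin all but absent from this line, had 1 and 13 counts, a ratio of 9.49 (1.57 to 443.7), under the mean of 10 counts used for calls.

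**Figure D2:**
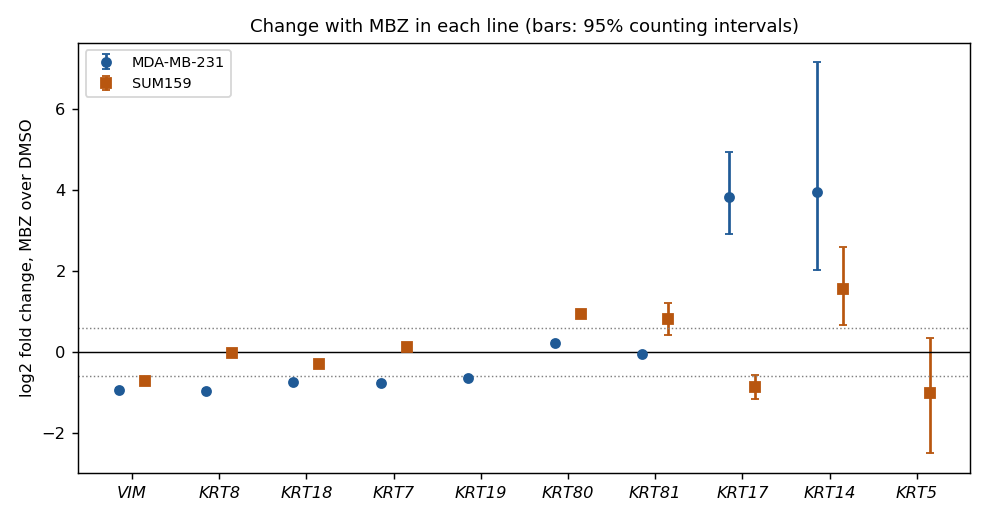
Log2 fold change of MBZ over DMSO for each gene with a mean of at least 10 counts in the line, circles MDA-MB-231 and squares SUM159, each from 1 library per treatment. Bars are 95% counting intervals and dotted lines mark 1.5-fold. VIM lies below 0 in both lines at -0.92 and -0.70, KRT14 above 0 in both, and KRT17 at 3.83 in MDA-MB-231 and -0.86 in SUM159.

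The third comparison asks whether the lines responded alike. VIM was lower and KRT14 higher by at least 1.5-fold in both lines. With scaling by total counts VIM in SUM159 was at -0.40, within 1.5-fold. The share of all genes called alike in both lines was not counted. The edgeR quasi-likelihood test of a change shared by both lines, where the lines take the place of replicates, called 0 of the 9 members it could test. Over all 16100 genes it called 1, or 0.00621%, while 1150 had an unadjusted p under 0.05. KRT14 was the only member with an unadjusted p under 0.05 in this fit, at a shared log2 fold change of 2.51 (SE 0.86, adjusted p = 0.624), higher in 2 of 2 lines. VIM had a shared log2 fold change of -0.77 (SE 0.48, adjusted p = 0.779), lower in 2 of 2 lines. DESeq2's Wald test also called 0 members, and 100 genes over the whole table. Which members had an unadjusted p under 0.05 depended on the fit. It was VIM and not KRT14 with DESeq2 (adjusted p of 0.474 and 0.870), and KRT14, VIM and KRT17 in the edgeR fit of every gene with at least 1 count (adjusted p of 0.244 to 0.766).

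The difference of the log2 fold changes, SUM159 minus MDA-MB-231, has no residual degrees of freedom with 4 libraries, and its interval covers counting error only. For all 8 members with a mean of at least 10 counts in both lines the interval left out 0, as it did for 65.0% of the 13733 genes at that level. The difference was smallest for VIM, at 0.22 (0.19 to 0.25), and largest for KRT17, at -4.70 (-5.84 to -3.71). KRT8 differed by 0.94 (0.89 to 0.99) and KRT18 by 0.44 (0.36 to 0.52), so the fold change of each partner was nearer to 1 in SUM159, and the lines differed more in KRT8 than in KRT18. KRT7 differed by 0.88 (0.83 to 0.94), KRT81 by 0.86 (0.48 to 1.26) and KRT80 by 0.72 (0.63 to 0.81). KRT14 was higher in both lines and differed by -2.44 (-5.73 to -0.14). No spread between cultures stands behind these intervals.

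The fourth comparison asks how much of the filament mRNA was VIM. Over the 10 genes, each divided by its exonic length, VIM made up 26.9% of the MDA-MB-231 sum under DMSO and 21.2% under MBZ, and 63.4% and 50.0% of the SUM159 sum. The share was thus higher in SUM159 in both treatments, and lower with MBZ in both lines. This share is formed within a library and does not depend on the scaling between libraries. With canonical transcript lengths, an alternative chosen after seeing the data, it was 30.4%, 26.3%, 61.6% and 49.0%. Both KRT7 and KRT80 took a larger share in SUM159 with MBZ, KRT7 going from 16.6% to 23.1% and KRT80 from 2.71% to 6.71%. In MDA-MB-231 the largest gain was that of KRT81, from 19.1% to 27.5%, while KRT8 went from 11.6% to 8.97%. With canonical lengths KRT81 went from 9.00% to 14.2% and KRT8 from 21.1% to 17.9%, so the directions held but KRT8 took the larger share. The basal keratins KRT5, KRT14 and KRT17 held at most 0.457% each in any library.

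**Figure D3:**
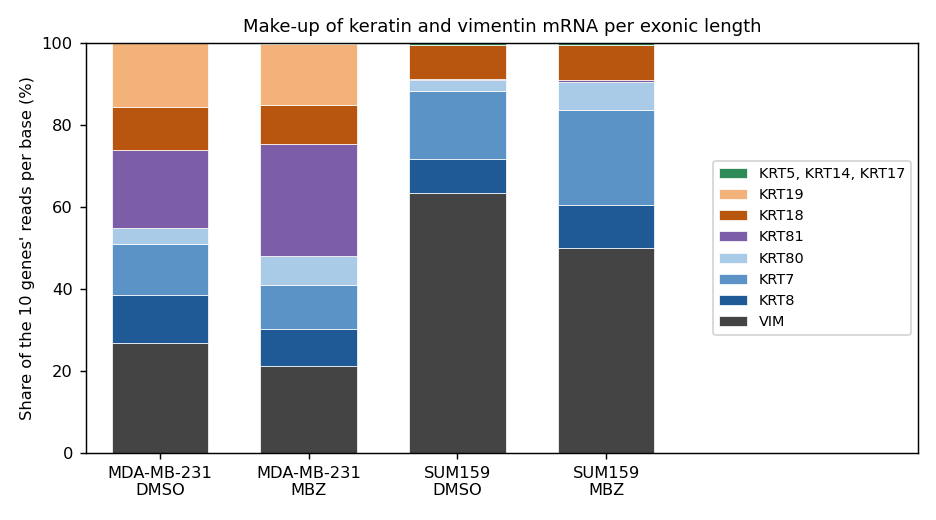
Share of each gene in the summed reads per exonic base of the 10 genes, in percent, as 1 stacked bar for each library. VIM, at the bottom, takes 26.9% and 21.2% in MDA-MB-231 with DMSO and MBZ and 63.4% and 50.0% in SUM159, and KRT19 and KRT81 are seen in MDA-MB-231.

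Type II keratins outweighed type I keratins in every library. The summed type II level per type I level, by exonic length, was 1.80 (DMSO) and 2.20 (MBZ) in MDA-MB-231, and 3.18 and 4.51 in SUM159. By canonical length it was 2.02, 2.10, 4.03 and 5.41. In SUM159, where KRT19 is all but absent, KRT18 had the highest level of the type I members, beside the type II members KRT7, KRT8 and KRT80. These sums hold the 9 keratins alone. Of the type I keratins outside them, KRT10, a keratin of upper epidermal layers, had per-length levels of 27.2 and 40.8 in MDA-MB-231 and 8.07 and 22.5 in SUM159, where KRT18 had 82.6 and 67.2. KRT15, a basal type I keratin, had per-length levels of 0.548 and 0.617 in MDA-MB-231 and, with 9 and 172 counts, of 0.0910 and 1.40 in SUM159. Of the type II keratins outside them, KRT75 had per-length levels of 18.9 and 65.0 in SUM159, and KRT86 levels of 6.19 and 3.02 in MDA-MB-231 and 9.84 and 7.14 in SUM159.

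Set against VIM, KRT8 held in MDA-MB-231 and was higher with MBZ in SUM159, while KRT7 and KRT18 were higher with MBZ in both lines. The KRT8 reads per VIM read were 0.573 with DMSO (0.565 to 0.582) and 0.562 with MBZ (0.549 to 0.575) in MDA-MB-231, where the intervals overlap, and 0.173 (0.170 to 0.177) and 0.280 (0.274 to 0.286) in SUM159. KRT7 per VIM went from 0.356 (0.349 to 0.362) to 0.397 (0.386 to 0.407) in MDA-MB-231 and from 0.202 (0.198 to 0.206) to 0.357 (0.351 to 0.364) in SUM159. KRT18 per VIM went from 0.230 (0.225 to 0.235) to 0.260 (0.253 to 0.268) and from 0.0771 (0.0747 to 0.0796) to 0.102 (0.0988 to 0.105). The KRT80 ratio moved most of these 4 in both lines. KRT80 per VIM was 0.123 (0.120 to 0.127) with DMSO and 0.274 (0.266 to 0.282) with MBZ in MDA-MB-231, and 0.0361 (0.0345 to 0.0378) and 0.113 (0.110 to 0.117) in SUM159. KRT80 per KRT8 also was higher with MBZ in both lines, at 0.208 and 0.404 in SUM159.

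**Figure D4:**
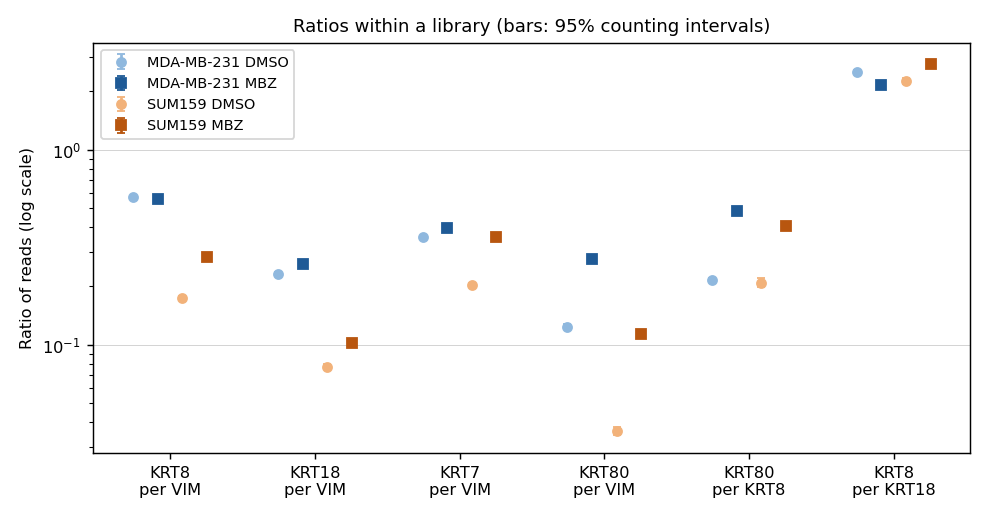
Reads of a gene per read of another gene of the same library, on a log axis, with 95% counting intervals, for the 4 libraries (circles DMSO, squares MBZ). KRT80 per VIM and KRT80 per KRT8 are higher with MBZ in both lines, while KRT8 per VIM is higher with MBZ in SUM159 and alike in MDA-MB-231.

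Over the 4 libraries KRT8 and KRT18 had closely like patterns. By the distance between centred log2 CPM, KRT18 ranked 74 of 15981 genes from KRT8 at 0.270, and KRT8 ranked 118 from KRT18. The closest genes were INPP5F (0.0476), USP13 (0.0491) and MTHFD1 (0.0689) to KRT8, and ENSG00000254198 (0.0546), RBM8A (0.0699) and RELL1 (0.0724) to KRT18. The closest to VIM were MAZ (0.0680), NIPSNAP1 (0.0726) and ACADS (0.0798), while KRT8 ranked 7110 from VIM and KRT7 1532. With 4 libraries many genes come this close, and the distances are a description.

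Of the 46 other keratins of the table, 7 averaged at least 10 counts across the 4 libraries and 3 averaged at least 100. In SUM159, 9 were compared, of which 7 were at least 1.5-fold higher with MBZ and 0 lower, beside 21.5% and 21.7% of all genes, and their log2 fold changes had a median of 1.48. In MDA-MB-231, 4 were compared, 1 higher and 1 lower, beside 18.3% and 15.8% of all genes, with a median of 0.36. With scaling by total counts 8 were higher in SUM159 and 2 in MDA-MB-231. KRT34 was higher in both lines. It had 25 and 114 counts in MDA-MB-231 (2.46, 1.83 to 3.15) and 39 and 115 in SUM159 (1.24, 0.71 to 1.81). KRT75, a type II keratin of the hair follicle's companion layer, had 0 counts in both MDA-MB-231 libraries and 678 (DMSO) and 2908 (MBZ) in SUM159. It was at least 317.1-fold higher in SUM159 with DMSO and at least 893.4-fold with MBZ, against 3 counts per library. Its log2 fold change with MBZ in SUM159 was 1.78 (1.66 to 1.91). KRT10 had 1369 and 1679 counts in MDA-MB-231 and 289 and 1005 in SUM159, log2 fold changes of 0.57 (0.46 to 0.67) and 1.48 (1.29 to 1.68). In SUM159, 6 of the 9 had a mean of 10 to 100 counts and 5 of these were higher, beside 39.6% of all genes at that level. The other 3 were KRT86, which was not higher, KRT10, at a level of counts where 16.1% of all genes were higher, and KRT75, where 8.40% were.

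Of 14 other intermediate filament genes, 4 of 7 compared were lower and 0 higher in MDA-MB-231 (median -0.74 on the log2 scale), and 5 of 8 were higher and 3 lower in SUM159 (median 0.88). Over all genes 15.8% were lower and 18.3% higher in MDA-MB-231, and 21.7% and 21.5% in SUM159. With scaling by total counts 3 were lower in MDA-MB-231. NES, nestin, a type VI filament of progenitor cells, was lower in both, with 2727 and 648 counts in MDA-MB-231 (-1.80) and 33 and 15 in SUM159 (-1.45). The lamins, which line the nucleus, moved opposite ways in the lines. LMNB1 had 4602 and 1637 counts in MDA-MB-231 (-1.22, -1.30 to -1.14) and 718 and 1885 in SUM159 (1.08, 0.95 to 1.20). LMNB2 was at -1.06 and 0.93, and LMNA, named after its values were seen, at -0.74 and 0.82. Among genes of this list with a mean of at least 10 counts in SUM159, the largest log2 fold changes there were 1.88 for GFAP, the astrocyte filament, with 8 and 37 counts, and 1.86 for PRPH, peripherin, with 5 and 23. In MDA-MB-231, GFAP had more counts, 252 and 157, and was at -0.41 (-0.71 to -0.12), while PRPH had 0 and 2.

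Of 17 genes that anchor filaments or build desmosomes, 3 of 13 compared were lower in MDA-MB-231 and 5 of 12 in SUM159, beside 15.8% and 21.7% of all genes, and 0 were higher in either line. With scaling by total counts 1 was lower in MDA-MB-231, and 3 were lower and 1 higher in SUM159. JUP, plakoglobin, had 3511 and 1387 counts in MDA-MB-231 (log2 fold change -1.07, -1.16 to -0.98) and 6980 and 3188 in SUM159 (-1.45, -1.51 to -1.39). PPL, periplakin, a linker that binds keratins and VIM, had 1633 and 810 counts (-0.74) and 814 and 213 (-2.25, -2.47 to -2.03). The medians were -0.12 and -0.47.

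Of 14 transcription factors of epithelia, 10 were compared in each line, and in MDA-MB-231 3 were higher and 2 lower, and in SUM159 5 and 2, beside 18.3% and 15.8% of all genes in MDA-MB-231 and 21.5% and 21.7% in SUM159. With scaling by total counts MDA-MB-231 had 4 higher and 0 lower. KLF4, a factor of differentiating epithelia, had 885 and 4207 counts in MDA-MB-231 (log2 fold change 2.52) and 316 and 789 in SUM159 (1.00). EHF, an ETS factor of glandular epithelia, had 732 and 1292 counts (1.09) and 60 and 340 (2.18). TP63, the factor of basal cells, had 123 and 67 counts in MDA-MB-231 (-0.60, -1.06 to -0.16) and 2131 and 385 in SUM159 (-2.78, -2.95 to -2.63). The medians were 0.14 and 0.43. None of these 3 was called in the shared edgeR test, with adjusted p-values of 0.458 to 0.609.

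Of 12 genes of the cornified envelope, the hardened shell of upper epidermal cells, 3 had enough counts in each line. In MDA-MB-231, 2 of 3 were higher, and in SUM159, 3 of 3, beside 18.3% and 21.5% of all genes, or 38.5% and 39.6% of those with a mean of 10 to 100 counts and 14.2% and 16.1% of those with a mean of 100 to 1000, where FLG in MDA-MB-231 and SBSN in SUM159 lie. FLG, filaggrin, had 209 and 378 counts in MDA-MB-231 (log2 fold change 1.13, 0.88 to 1.38) and 10 and 2 in SUM159, under the mean of 10 counts (-2.56, -5.87 to -0.41). TGM1, a cross-linking transglutaminase, had 24 and 45 counts in MDA-MB-231 (log2 fold change 1.17, 0.43 to 1.96) and 7 and 14 in SUM159 (0.68, -0.72 to 2.23, which includes no change). SBSN, suprabasin, had 183 and 818 counts in SUM159 (1.84, 1.61 to 2.08) and 1 and 13 in MDA-MB-231. SPRR2D, a small proline-rich envelope protein, had 2 and 83 counts in SUM159 (4.98, 3.16 to 8.13).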

How the data were processed

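RNA of each culture was sequenced as 150-base read pairs. Per the labels and the paper's methods, the authors mapped reads to GRCh38 with STAR 2.5 and tallied reads per gene with HTSeq 0.6.1 (union mode). The deposited values are raw whole-number counts (the submitters' notes also list edgeR 3.16.5). The annotation release and the strand setting are not given in the sources used here. Symbols were matched by Ensembl identifier, lengths and overlaps come from GENCODE release 44, and 58207 of 58735 rows had a length.

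Fold changes were differences of log2 CPM (prior count 0.125), TMM-normalized within each pair of libraries (edgeR 4.0.16, R 4.3.3). Levels in CPM used TMM over the 4 libraries. A gene was called at 1.5-fold with a mean of at least 10 counts. Intervals are 95% Clopper-Pearson intervals, for the difference between lines the exact conditional interval of an odds ratio. They cover counting error only, since each condition has 1 library. They take reads as independent, which PCR copies are not, and so may be too narrow even for that error. The line and shared tests used edgeR's quasi-likelihood test (line and treatment, filterByExpr, common BCV 0.323, Benjamini-Hochberg adjusted p under 0.05 over 16100 genes). Each SE was worked back from the log2 value and the F statistic of that test, not taken from the fit. No label says that libraries came from repeated cultures. The fold changes within a pair, their intervals and the line test were tried on simulated data, and the other steps were not.

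The members, lists and rules were chosen with earlier results of these data known. The rule for named genes takes all 10 members, other keratins with a mean of at least 100 counts, from each list the genes called alike in both lines and at most 3 with the largest changes, overlapping genes, pseudogenes, and the 3 genes nearest to KRT8, KRT18 and VIM. FLG, KRT15, KRT16, KRT34 and LMNA and the markers given were named after their values were seen. The alternatives were DESeq2 1.42.0, RLE, total counts, TMM over 4 libraries, other priors and filters, a 2-fold limit, counting intervals, other lengths, pseudogenes added and each library left out. A marker and some shared sequences are not reported here.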

Additional observations from a re-analysis of the deposited data

Results flagged for a closer look

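The responses of 3 members lay on opposite sides of 0 in the lines with counting intervals that left out 0, and the difference was not tested against the spread between cultures. The share of all genes that met this rule was not counted, so the 3 cannot be set against the whole table. KRT17 was higher with MBZ in MDA-MB-231 and lower in SUM159, a difference of -4.70 on the log2 scale (SUM159 minus MDA-MB-231). KRT7 was at -0.76 in MDA-MB-231 and 0.12 in SUM159, a difference of 0.88, and kept its signs with scaling by total counts at -0.49 and 0.42. KRT81 was at -0.050 and 0.81, a difference of 0.86, and with scaling by total counts its value in MDA-MB-231 was 0.22. With the KRT86 counts added the values were -0.070 and -0.14, on the same side of 0, but in SUM159 most of the summed counts were of KRT86.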

How the results depend on the processing

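The calls within a line depended on scaling and on the limit. With scaling by total counts, 4 members were called in MDA-MB-231 in place of 7. With a 2-fold limit, 2 were called in MDA-MB-231 (KRT14 and KRT17) and 2 in SUM159 (KRT14 and KRT5). The shares of all genes called under these alternatives were not counted. The other alternatives for these counts gave 5 to 8 calls in MDA-MB-231 and 4 to 7 in SUM159. The KRT81 change in SUM159 was -0.14 with KRT86 added, a sum in which most counts were of KRT86. Line calls numbered 2 to 3 with each library left out. These fits had no treatment term, and the lone library of a line is assumed to vary like the other line. Over all genes the line test called 3455, 3150 without the treatment term, 1128 or 1387 without the MDA-MB-231 DMSO or MBZ library, and 3376 or 4757 without the SUM159 DMSO or MBZ library. The shared test called 0 members under every alternative, and 298 genes when every gene with at least 1 count was kept. The VIM share in MDA-MB-231 with DMSO and MBZ and in SUM159 with DMSO and MBZ was 29.7%, 25.1%, 61.5% and 48.3% by the longest transcript, 30.4%, 26.3%, 61.6% and 49.0% by the canonical transcript, and 31.6%, 25.5%, 67.5% and 54.8% by exonic bases not shared with another gene. The last 2 were chosen after seeing the data. Replicate numbers pair no samples, since each condition has 1 library. The shared test pairs the treatments within a line, and without the line term it called 0 genes, with 147 at an unadjusted p under 0.05. Counts under 20 in at least 1 library limit KRT5, KRT14, KRT17 in MDA-MB-231 and KRT19 in SUM159. With a prior count of 2, the KRT14 log2 fold change in MDA-MB-231 was 3.05 in place of 3.94.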
